A study of Mus musculus with 14 samples.

Results

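The autophagy machinery examined here is a list of 39 genes that act from the start of autophagosome formation to cargo capture, together with a pair of transcription factors of the pathway. The members were chosen by name. Each was read from its brightest probe set, the one with the highest mean log2 intensity over the 14 arrays. A probe set was found for 38 of the 39 members, and all 38 were among the 12085 genes that passed a filter on low intensities. Optn was not analysed here. By role the 38 genes comprised 5 of the initiation complex, 6 of the class III phosphatidylinositol 3-kinase complex, 7 of the phagophore membrane and lipid transfer, 10 of the conjugation systems and ATG4 proteases, 5 of the LC3 and GABARAP family, 3 cargo receptors and 2 transcription factors.

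Livers of mice were profiled on Affymetrix arrays, with 1 array per sample. The study set tunicamycin against control in wild-type mice (WT) and in mice labelled lsPERK, which the design text calls the knock-out. Tunicamycin, an inhibitor of protein N-glycosylation, makes unfolded proteins build up in the endoplasmic reticulum (ER), and PERK is the ER stress kinase encoded by Eif2ak3. The 4 groups were WT control (n = 3), WT tunicamycin (n = 4), lsPERK control (n = 3) and lsPERK tunicamycin (n = 4). Tunicamycin was given at 1 mg per kg and livers were taken at 6 h, while control mice received 0.3% DMSO with no time stated. The sources used here give neither the deleted part of the gene, nor what drove the deletion, nor the age or sex of the mice. Nor do they state that the arrays of a group hold different animals. In every group, Xist read 7878 to 9297 on at least 1 array and 23.4 to 61.2 on the others, in the deposited intensities. The arrays of a group thus do not all come from 1 liver, though how many animals each group holds is not stated. The p-values reflect the spread among these arrays alone, and the spread among arrays alike in Xist may be technical.

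Autophagy delivers cytoplasm and organelles to the lysosome inside a double membrane. The ULK1 kinase complex starts the process, the class III phosphatidylinositol 3-kinase complex marks the growing membrane (the phagophore) with its lipid, and WIPI and ATG2 proteins extend that membrane. Ubiquitin-like conjugation systems then attach LC3 and GABARAP proteins to the membrane, where cargo receptors bind them. In liver, autophagy is known for supplying nutrients during fasting and for clearing damaged organelles. The PERK branch of the unfolded protein response raises translation of the transcription factor ATF4, and ATF4 and its target CHOP have been reported to induce many autophagy genes in stressed fibroblasts.

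Arrays differed in overall brightness, with medians that spanned 0.63 on the log2 scale, and the log2 intensities were therefore quantile normalized. Intensities below are on this normalized scale, and a change is a difference of mean log2 intensity with its standard error (SE). A gene was called at a limma adjusted p under 0.05. All 8 hepatocyte markers were detected, with a summed intensity of 111000 to 123000 over the 14 arrays. Of these, Tat was called higher in WT liver after tunicamycin (0.88) and lower in treated lsPERK than in treated WT liver (-0.50), Ass1 was called lower in lsPERK liver after tunicamycin (-1.25), and both had a called difference of responses (-0.83 and -1.46). All 8 markers of Kupffer cells and macrophages had negative changes in both responses (WT median -0.70, range -0.88 to -0.48, beside -0.13 over all genes, and lsPERK median -0.52, range -0.77 to -0.43, beside -0.02), and 0 of the 8 were called in either. Their summed intensity ran from 6000 to 17400 in WT control, 3520 to 12400 in WT tunicamycin, 5790 to 16700 in lsPERK control and 6240 to 9680 in lsPERK tunicamycin arrays. No tested marker of neutrophils, lymphocytes or erythroid cells was called in either response, with list medians of -0.87 to 1.00 in WT and -1.47 to 0.73 in lsPERK liver, and Mpo, Camp, Cd2, Col1a1, Krt7 and Hba-a1 lay under the filter threshold on all arrays. Of 7 endothelial and 6 tested stellate cell markers, 2 each were called lower in WT liver after tunicamycin. Between treated livers, 2 of the 6 stellate markers were called higher in lsPERK (list median 0.46, beside 0.05 over all genes). For 1 stellate marker the difference of responses was called, more positive in lsPERK liver. Summed endothelial marker intensity ran from 5510 to 8800 in WT control and from 4820 to 7620 in WT tunicamycin arrays, and summed stellate marker intensity from 8010 to 11300 and from 6460 to 9220. Of 3 tested cholangiocyte markers, 1 was called higher in lsPERK liver after tunicamycin. Their part in the results below was not tested. In whole liver, fewer cells of a type and less RNA per cell cannot be told apart. By its brightest probe set, the targeted gene Eif2ak3 read 240 to 443 in WT control and 1720 to 2420 in WT tunicamycin arrays. It read 127 to 157 in lsPERK control and 239 to 316 in lsPERK tunicamycin arrays. A dimmer kept set read 1.44 to 13 in WT control and 47.2 to 65.6 in WT tunicamycin arrays. That set read 1.81 to 4.41 in lsPERK control and 21 to 31.4 in lsPERK tunicamycin arrays. Only its treated WT arrays lay above the filter threshold of 41.5. Whether either probe set lies in the deleted part is not given in the sources used here.

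In WT liver after tunicamycin, autophagy members were called in both directions, in shares not far from those of all genes. The kinase gene Ulk1 fell and its partner gene Atg13 rose, the membrane genes Atg2a and Atg9a fell, and the protease gene Atg4d rose while Atg4a fell. Of the 38 members, 9 were called higher and 12 lower, or 21 in all (55.3%, with 31.6% lower). Of all genes tested, 46.7% were called, 20.7% higher and 26% lower. The members' median change was -0.04, beside -0.13 over all genes, and their median absolute change was 0.33, beside 0.49. In lsPERK liver, 5 members were called higher and 1 lower, where 15.7% of all genes were called, 8.42% higher and 7.27% lower, and the median was -0.02 both for the members and for all genes. Of the 21 members called in WT liver, 3 were also called in lsPERK liver (Atg13, Atg12 and Tfe3), each in the same direction. The matching share among all genes called in WT liver was not computed, so this overlap is not read as particular to the members. Leaving out lsPERK control replicate 2 reduced the lsPERK count from 6 to 2 (Atg13 and Tfe3).

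The directions called lower in WT liver depended on how arrays were scaled. Over all genes the WT change had a median of -0.13 after quantile normalization, 0.01 with each array centred on its median and 0.30 in the intensities as deposited. With the deposited intensities 15 members were called higher and 0 lower, and with median centring 9 were called higher and 4 lower. Of all genes, 4337 were called in the deposited intensities and 4967 with median centring, beside 5642 after quantile normalization. In lsPERK liver these numbers were 695, 1511 and 1897. They are given without shares, because the filter was redone under each scaling. All 9 members called higher after quantile normalization were also called higher in the deposited intensities, and all but Nbr1 of them under median centring. None of the 12 genes called lower was called in the deposited intensities, and 4 of them (Ulk1, Atg14, Atg2a and Atg9a) were called under median centring. Statements that a gene fell in WT liver therefore describe its level relative to the other genes on the arrays.

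**Figure D1:**
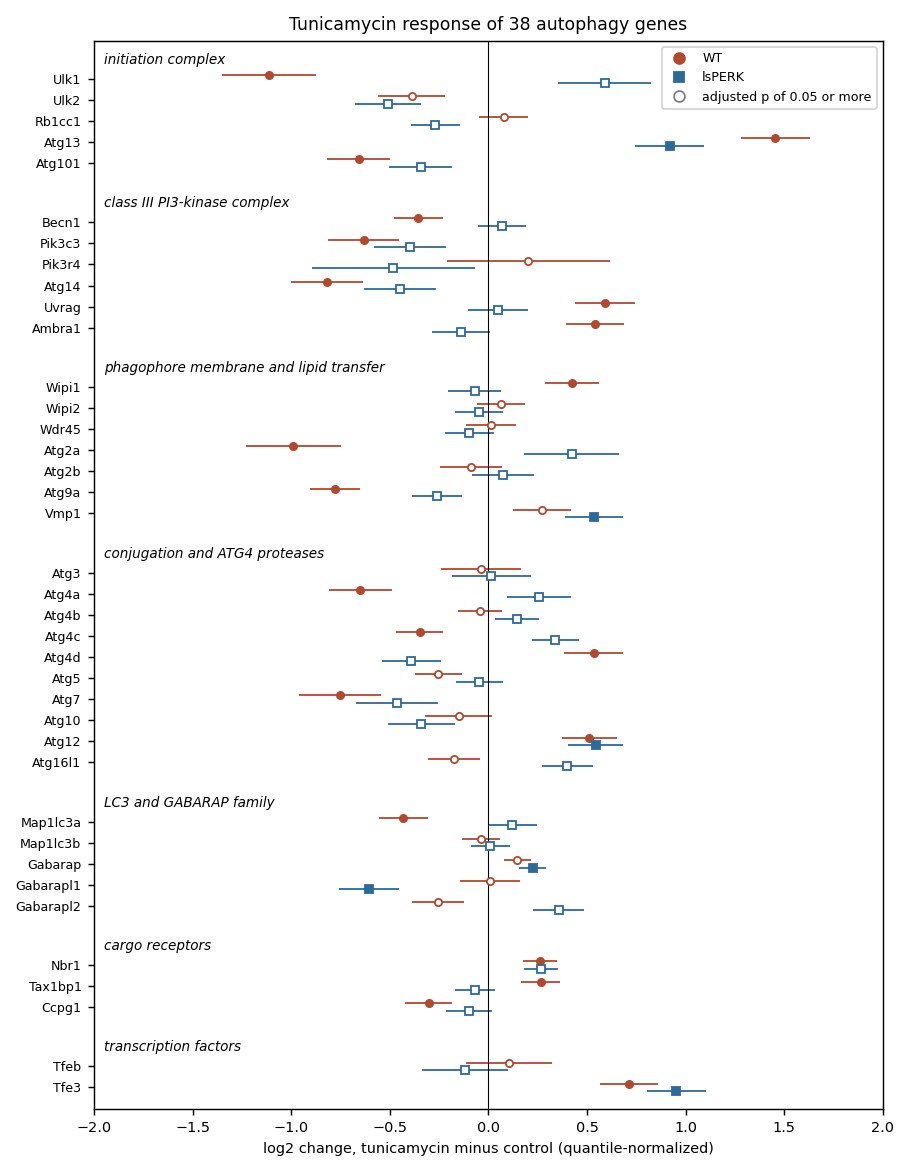
Log2 change after tunicamycin (horizontal axis, quantile-normalized) for 38 autophagy genes in WT (circles) and lsPERK liver (squares), grouped by role. Bars are 1 standard error, and filled symbols have a limma adjusted p under 0.05. Atg13 lies farthest to the right in WT liver at 1.45 and Ulk1 farthest to the left at -1.11.

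Between control livers of both genotypes, no member was called, and 0% of all genes were. The smallest limma adjusted p of any gene was 0.309, and 512 of the 12085 genes had an unadjusted p under 0.05. Between tunicamycin-treated livers, 9 members were higher and 7 lower in lsPERK than in WT, among 35.3% of all genes called, 18.5% higher and 16.8% lower. The difference between both responses (the lsPERK change minus the WT change) was called for 9 members, 7 with a more positive and 2 with a more negative change in lsPERK liver, beside 19.9% of all genes, 10.2% more positive and 9.67% more negative. The 9 were Ulk1, Atg2a, Atg4a, Atg4c, Atg16l1, Map1lc3a, Gabarapl2, Ambra1 and Atg4d. These comparisons share arrays with each other, so their values are given side by side for each gene and not as separate support. The 7 members lower in treated lsPERK liver and the 2 more negative differences were also called under both other scalings. Of the 9 members higher in treated lsPERK liver, 2 (Ulk1 and Atg2a) were called under both. Of the 7 more positive differences, none was called in the deposited intensities and 2 (Ulk1 and Atg2a) were called under median centring. Over all members, the deposited intensities gave 0 more positive and 8 more negative differences, and median centring gave 2 and 3. Between treated livers the counts were 2 higher and 7 lower as deposited, and 4 and 9 under median centring. Over all genes, 1901 and 1849 differences were called, and 2662 and 3673 genes between treated livers. The median difference over all genes was 0.08, and -0.42 and -0.01 under these scalings. The balance of directions thus depended on scaling.

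The initiation complex held the largest rise and the largest fall of the members. Ulk1, the kinase that starts autophagosome formation, read 1410, 1010 and 1050 in WT control, 597, 504, 499 and 522 in WT tunicamycin, 642, 1030 and 1220 in lsPERK control, and 1090, 2080, 1480 and 1130 in lsPERK tunicamycin arrays. All 4 WT tunicamycin arrays lay below all other arrays, and both lsPERK groups overlapped. Ulk1 fell by 1.11 in WT liver (SE 0.24, 2.16-fold, adjusted p = 0.00153). In lsPERK liver its change was 0.59 (SE 0.24, adjusted p = 0.117), and its level in treated lsPERK liver was 2.64-fold that in treated WT liver (1.40, SE 0.22, adjusted p = 0.000216). The lsPERK minus WT response was 1.70 (SE 0.34, adjusted p = 0.00336). In the deposited intensities the WT change of Ulk1 was -0.56 with an adjusted p of 0.136. The gene's other kept probe set gave a WT change of -1.33 (adjusted p = 0.000744) and a difference of responses of 2.07 (adjusted p = 0.00173).

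Atg13, which links the kinase to its scaffold, read 416, 426 and 403 in WT control, 1200, 1200, 1040 and 1100 in WT tunicamycin, 271, 357 and 512 in lsPERK control, and 577, 751, 791 and 680 in lsPERK tunicamycin arrays. Treated arrays lay above control arrays in both genotypes, and every treated lsPERK array lay below every treated WT array. Atg13 rose 2.74-fold in WT liver (1.45, SE 0.18, adjusted p = 1.40e-05) and 1.89-fold in lsPERK liver (0.92, SE 0.18, adjusted p = 0.0028). Treated lsPERK liver held less Atg13 than treated WT liver (-0.71, SE 0.16, adjusted p = 0.00361), while the difference of the responses was -0.53 (SE 0.25, adjusted p = 0.155). A dimmer probe set of Atg13 gave a difference of responses of -1.03 with an adjusted p of 0.0337.

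Atg101, which stabilises ATG13, read 485, 624 and 644 in WT control, 319, 340, 387 and 434 in WT tunicamycin, 525, 457 and 667 in lsPERK control, and 386, 390, 469 and 474 in lsPERK tunicamycin arrays. The WT groups did not overlap and the lsPERK groups did. Atg101 fell by 0.66 in WT liver (SE 0.16, adjusted p = 0.00387), with a change of -0.34 in lsPERK liver (SE 0.16, adjusted p = 0.176). The scaffold gene Rb1cc1, also known as FIP200, was 839 to 1020 in treated WT and 598 to 786 in treated lsPERK arrays, a difference of -0.34 (SE 0.11, adjusted p = 0.0324) that was lost on leaving out WT tunicamycin replicate 1 or 2 or lsPERK tunicamycin replicate 1 or 4 (adjusted p = 0.0611 to 0.111). Its brightest probe set changed by 0.08 in WT liver (adjusted p = 0.638), whereas a dimmer one changed by 1.50 (adjusted p = 3.32e-05). The difference of responses was -0.35 by the brightest set (adjusted p = 0.191) and -1.28 by the dimmer one (adjusted p = 0.00713). Ulk2, the paralogue of Ulk1, was called in no comparison by its brightest probe set (WT change -0.39, SE 0.17, adjusted p = 0.0726), and a dimmer set gave -0.86 (adjusted p = 0.00524).

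RefSeq promoters (GRCm38.p6, 250 bases before to 50 after the start site) were matched for 33 of the 39 members, in 42 promoters. Those of Ulk1 and Atg13 are shown because these partner genes had the largest opposite changes, that of Atg14 because it holds a match next to the start site, and that of Atg3 because it is the only member promoter with the CLEAR-like element. Capitals mark motif matches. The Ulk1 promoter lies at chr5:110810032-110810331 on the minus strand, that of Atg13 at chr2:91710543-91710842 on the minus strand, that of Atg14 at chr14:47568385-47568684 on the minus strand and that of Atg3 at chr16:45158579-45158878 on the plus strand.
Ulk1: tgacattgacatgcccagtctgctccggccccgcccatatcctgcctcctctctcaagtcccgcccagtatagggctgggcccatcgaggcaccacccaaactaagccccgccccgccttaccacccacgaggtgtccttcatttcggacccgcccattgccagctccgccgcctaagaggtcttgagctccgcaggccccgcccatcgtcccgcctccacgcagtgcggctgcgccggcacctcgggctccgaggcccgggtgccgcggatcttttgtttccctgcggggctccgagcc
Atg13: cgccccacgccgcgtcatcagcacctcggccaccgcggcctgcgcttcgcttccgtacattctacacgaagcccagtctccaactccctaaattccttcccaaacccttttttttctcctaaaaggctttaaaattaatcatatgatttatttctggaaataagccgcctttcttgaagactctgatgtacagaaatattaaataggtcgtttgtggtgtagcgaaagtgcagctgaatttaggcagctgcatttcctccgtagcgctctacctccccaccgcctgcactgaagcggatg
Atg14: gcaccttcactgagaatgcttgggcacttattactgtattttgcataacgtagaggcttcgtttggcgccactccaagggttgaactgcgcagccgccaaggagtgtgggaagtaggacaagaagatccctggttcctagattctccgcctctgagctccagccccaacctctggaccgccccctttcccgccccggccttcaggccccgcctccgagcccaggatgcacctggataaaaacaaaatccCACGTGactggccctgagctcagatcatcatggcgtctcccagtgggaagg
Atg3: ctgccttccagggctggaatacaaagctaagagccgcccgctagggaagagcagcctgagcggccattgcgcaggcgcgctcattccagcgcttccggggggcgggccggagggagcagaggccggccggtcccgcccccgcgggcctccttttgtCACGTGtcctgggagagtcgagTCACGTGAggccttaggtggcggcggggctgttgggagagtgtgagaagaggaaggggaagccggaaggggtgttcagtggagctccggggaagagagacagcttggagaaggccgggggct

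The motif search covered both strands of all 32851 promoters of this length in the table. The C/EBP-ATF composite element TGATGNAAN, which ATF4 dimers bind, was in 0 of the 42 member promoters and in 3.95% of all promoters. The amino acid response element core TTGCATCA (0.895% of all promoters) is, on the other strand, a form of the composite element. Its 0 of 42 is therefore no separate result. The unfolded protein response element TGACGTGG (0.676%) and the ER stress element (0.119%) were also in 0 of 42. With shares this low, no match in 42 promoters says little about the members. The E-box CACGTG was in 4 member promoters, of Atg14, Atg3, Atg5 and Atg7, and in 7.15% of all promoters. The CLEAR-like element TCACGTGA, which contains the E-box and is bound by TFEB and TFE3, was in the Atg3 promoter and in 0.974% of all promoters. In Atg3 it began at position -72 from the start site, and the E-box of Atg14 began at position -1. Member promoters had a median GC content of 59.7%, and all promoters had 52.7%. These matches describe the letters of this window, and binding was not measured.

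In the class III phosphatidylinositol 3-kinase complex, 2 of 6 genes rose and 3 fell in WT liver, beside 20.7% and 26% of all genes. Uvrag and Ambra1 rose there, and Atg14, Pik3c3 and Becn1 fell. In lsPERK liver 0 of 6 were called, beside 15.7% of all genes. Atg14, the subunit that brings the kinase to the phagophore, read 437, 382 and 447 in WT control, 252, 224, 204 and 282 in WT tunicamycin, 283, 333 and 465 in lsPERK control, and 206, 298, 293 and 246 in lsPERK tunicamycin arrays. The WT groups did not overlap, and 1 lsPERK control array lay within the range of the treated lsPERK arrays. Atg14 fell by 0.82 in WT liver (SE 0.18, adjusted p = 0.00216). In lsPERK liver the change was -0.45 (SE 0.18, adjusted p = 0.121), and the difference of the responses was 0.37 (SE 0.26, 95% confidence interval -0.19 to 0.92).

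Uvrag takes the place of ATG14 in the form of the complex that serves endosomes. It read 1210, 1800 and 1290 in WT control, 2510, 2010, 2230 and 1820 in WT tunicamycin, 1110, 1080 and 1100 in lsPERK control, and 1140, 957, 1350 and 1120 in lsPERK tunicamycin arrays. The 4 treated WT arrays were the highest of the 14, and all lsPERK control arrays lay below all WT control arrays. Uvrag rose 1.51-fold in WT liver (0.59, SE 0.15, adjusted p = 0.00545), changed by 0.05 in lsPERK liver (SE 0.15, adjusted p = 0.885) and was lower in treated lsPERK than in treated WT liver (-0.91, SE 0.14, adjusted p = 0.000197). A difference of responses of -0.54 did not pass (SE 0.21, adjusted p = 0.094). The control groups differed by -0.36, which was not called (SE 0.16, limma adjusted p = 0.992). The share of all genes whose control groups do not overlap was not computed.

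Ambra1, which binds Beclin 1 and links it to the kinase complex, read 195, 208 and 179 in WT control, 338, 284, 250 and 261 in WT tunicamycin, 194, 229 and 278 in lsPERK control, and 189, 218, 208 and 228 in lsPERK tunicamycin arrays. Treated WT arrays lay above WT control and treated lsPERK arrays. Ambra1 rose 1.45-fold in WT liver (0.54, SE 0.15, adjusted p = 0.00784) and changed by -0.14 in lsPERK liver (SE 0.15, adjusted p = 0.595). The responses differed by -0.68 (SE 0.21, adjusted p = 0.0343), and leaving out any of 9 arrays in turn ended this call (adjusted p = 0.0503 to 0.0833). The lower level in treated lsPERK liver (-0.42, SE 0.14, adjusted p = 0.0262) was lost on leaving out WT tunicamycin replicate 1 or 2 or lsPERK tunicamycin replicate 1 or 3 (adjusted p = 0.0504 to 0.0859). A pair of dimmer Ambra1 probe sets, neither called, gave genotype differences of -0.11 and 0.38 in treated liver. The mean of all 3 sets ended the calls of Ambra1 in the WT response (0.45, adjusted p = 0.0607), between treated livers (-0.05, adjusted p = 0.856) and in the difference of responses (-0.37, adjusted p = 0.366).

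Becn1, which encodes the scaffold Beclin 1, read 1500, 1770 and 1640 in WT control, 1290, 1150, 1360 and 1310 in WT tunicamycin, 1620, 1350 and 1900 in lsPERK control, and 1560, 1530, 1840 and 1860 in lsPERK tunicamycin arrays. Treated WT arrays lay below WT control and treated lsPERK arrays. Becn1 fell by 0.36 in WT liver (SE 0.12, adjusted p = 0.0286), a call that ended without WT control replicate 2 or 3 or WT tunicamycin replicate 2 (adjusted p = 0.0694 to 0.105) and whose sign turned in the deposited intensities (0.17, adjusted p = 0.474). It was higher in treated lsPERK than in treated WT liver (0.41, SE 0.11, adjusted p = 0.0129). A second probe set of Becn1, nearly as bright, changed by 0.01 in WT liver (adjusted p = 0.92). The catalytic subunit gene Pik3c3 ran from 396 to 426 in WT control and from 234 to 299 in WT tunicamycin arrays and fell by 0.63 (SE 0.18, adjusted p = 0.011). Pik3r4, the regulatory subunit gene, had the widest spread of the list and changed by 0.20 in WT (SE 0.41) and -0.48 in lsPERK liver (SE 0.41).

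**Figure D2:**
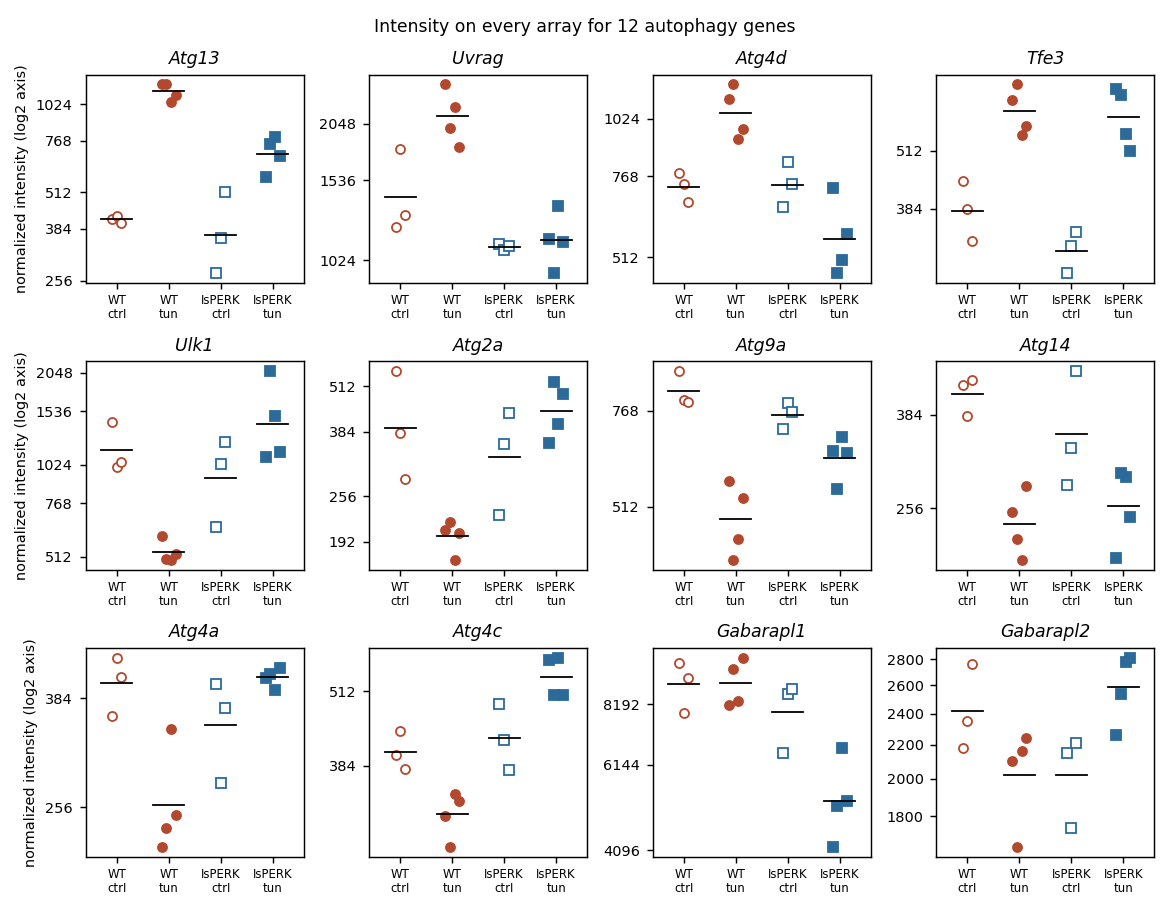
Normalized intensity of 12 autophagy genes on each of the 14 arrays (log2 vertical axes that differ between panels), with a line at each group's geometric mean. WT is shown in circles and lsPERK in squares, open for control (ctrl) and filled for tunicamycin (tun). Ulk1 and Atg4c have treated WT arrays below all other arrays, and Atg13 has them above all other arrays.

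Among the 7 genes of the phagophore membrane and lipid transfer, 1 rose and 2 fell in WT liver, and 1 rose in lsPERK liver. Over all genes, 20.7% were called higher and 26% lower in WT liver, and 8.42% higher in lsPERK liver. Atg2a encodes a protein that carries lipid from the ER into the phagophore. It read 564, 382 and 285 in WT control, 207, 217, 171 and 203 in WT tunicamycin, 228, 355 and 432 in lsPERK control, and 358, 526, 403 and 487 in lsPERK tunicamycin arrays. The treated WT arrays lay below all other arrays. Atg2a fell by 0.99 in WT liver (SE 0.24, 1.99-fold, adjusted p = 0.00389), changed by 0.42 in lsPERK liver (SE 0.24, adjusted p = 0.276) and was 2.2-fold higher in treated lsPERK than in treated WT liver (1.14, SE 0.22, adjusted p = 0.0012). The responses differed by 1.41 (SE 0.34, adjusted p = 0.0105). Its paralogue Atg2b was called in no comparison and ran from 216 to 330 over the 14 arrays.

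Atg9a encodes the membrane protein of the vesicles that seed the phagophore. Its levels were 908, 804 and 795 in WT control, 572, 409, 448 and 531 in WT tunicamycin, 712, 792 and 762 in lsPERK control, and 647, 552, 687 and 642 in lsPERK tunicamycin arrays. Treated arrays lay below control arrays in both genotypes, with the wider gap in WT. Atg9a fell by 0.78 in WT liver (SE 0.13, adjusted p = 0.000188), and its change was -0.26 in lsPERK liver (SE 0.13, adjusted p = 0.198). For the difference of the responses, 0.52, the test did not pass (SE 0.18, adjusted p = 0.0566). The higher level in treated lsPERK liver (0.38, SE 0.12, adjusted p = 0.0228) was lost on leaving out any of 5 treated arrays in turn (adjusted p = 0.0526 to 0.0674).

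Wipi1, which reads the lipid made by the class III kinase, gave 509, 468 and 436 in WT control, 604, 570, 649 and 710 in WT tunicamycin, 412, 522 and 577 in lsPERK control, and 410, 467, 540 and 494 in lsPERK tunicamycin arrays. Treated WT arrays lay above WT control and treated lsPERK arrays. Wipi1 rose 1.34-fold in WT liver (0.42, SE 0.14, adjusted p = 0.0201) and was lower in treated lsPERK liver (-0.41, SE 0.13, adjusted p = 0.0216). The first call ended without WT control replicate 3 or WT tunicamycin replicate 4 (adjusted p = 0.0789 and 0.0566), and the second without WT tunicamycin replicate 4 or lsPERK tunicamycin replicate 1 (adjusted p = 0.0654 and 0.0727). The other 5 kept probe sets of Wipi1 also gave positive WT changes, up to 1.57 (adjusted p = 0.00011). The brightest one is of a type that may match other transcripts, as are the brightest sets of Pik3r4, Map1lc3a and Gabarapl1.

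Vmp1, an ER membrane protein needed for phagophore growth, read 2960, 3200 and 3990 in WT control, 3460, 4280, 4120 and 4430 in WT tunicamycin, 2910, 2830 and 4390 in lsPERK control, and 4620, 5000, 4940 and 4610 in lsPERK tunicamycin arrays. Treated lsPERK arrays lay above all other arrays, and the WT groups overlapped. Vmp1 rose 1.45-fold in lsPERK liver (0.53, SE 0.15, adjusted p = 0.0241) and changed by 0.27 in WT liver (SE 0.15, adjusted p = 0.147), and the difference of 0.26 did not pass (SE 0.21, 95% confidence interval -0.18 to 0.71). The lsPERK call ended without lsPERK control replicate 1 or 2 or lsPERK tunicamycin replicate 2 or 3 (adjusted p = 0.0535 to 0.126). Wipi2 and Wdr45, relatives of Wipi1, were called in no comparison, with WT changes of 0.06 (SE 0.12) and 0.01 (SE 0.13). Dimmer probe sets of Wipi2 gave 0.71 (adjusted p = 0.0188) and 0.86 (adjusted p = 0.041).

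The conjugation systems and ATG4 proteases had 2 of 10 genes called higher and 3 lower in WT liver, beside 20.7% and 26% of all genes. In lsPERK liver 1 was called higher (8.42% of all genes), and 4 were called in the difference of the responses (19.9%). The 4 ATG4 proteases, which trim LC3 and GABARAP proteins before conjugation and release them afterwards, differed in direction: Atg4d rose and Atg4a and Atg4c fell in WT liver. Atg4d read 779, 738 and 675 in WT control, 1130, 1220, 926 and 973 in WT tunicamycin, 657, 824 and 737 in lsPERK control, and 724, 472, 505 and 575 in lsPERK tunicamycin arrays. The treated WT arrays lay above all other arrays, and 3 of the 4 treated lsPERK arrays were the lowest of the 14. Atg4d rose 1.45-fold in WT liver (0.53, SE 0.15, adjusted p = 0.00979) and changed by -0.39 in lsPERK liver (SE 0.15, adjusted p = 0.1). It was 1.88-fold lower in treated lsPERK than in treated WT liver (-0.91, SE 0.14, adjusted p = 0.000184), and the difference of the responses was -0.92 (SE 0.21, adjusted p = 0.00821).

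Atg4a read 359, 446 and 416 in WT control, 221, 237, 343 and 249 in WT tunicamycin, 405, 280 and 370 in lsPERK control, and 414, 420, 395 and 430 in lsPERK tunicamycin arrays. All treated WT arrays lay below WT control and treated lsPERK arrays. Atg4a fell by 0.65 in WT liver (SE 0.16, adjusted p = 0.00463) and changed by 0.26 in lsPERK liver (SE 0.16, adjusted p = 0.336). It was higher in treated lsPERK than in treated WT liver (0.68, SE 0.15, adjusted p = 0.00278), and the difference of its responses was 0.90 (SE 0.23, adjusted p = 0.0139).

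Atg4c read 400, 439 and 379 in WT control, 317, 281, 344 and 336 in WT tunicamycin, 487, 424 and 378 in lsPERK control, and 576, 505, 582 and 505 in lsPERK tunicamycin arrays. The treated WT arrays were the lowest and the treated lsPERK arrays the highest of the 14. Atg4c was 1.7-fold higher in treated lsPERK than in treated WT liver (0.76, SE 0.11, adjusted p = 0.000126), and the difference of the responses was 0.69 (SE 0.17, adjusted p = 0.0121). Its fall in WT liver of 0.35 (SE 0.12, adjusted p = 0.0285) was lost on leaving out WT control replicate 1 or 2 or WT tunicamycin replicate 1 or 2 (adjusted p = 0.0519 to 0.106), and its sign turned in the deposited intensities (0.20, adjusted p = 0.534). The lsPERK change of 0.34 did not pass (SE 0.12, adjusted p = 0.0747). Atg4b was called in no comparison by its brightest probe set and ran from 379 to 537 over the 14 arrays. A dimmer set of Atg4b changed by -0.41 in WT liver (adjusted p = 0.00501).

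Atg12, the ubiquitin-like protein joined to ATG5, rose in both genotypes. It read 621, 656 and 770 in WT control, 945, 775, 1070 and 1120 in WT tunicamycin, 655, 540 and 625 in lsPERK control, and 815, 1020, 831 and 880 in lsPERK tunicamycin arrays. Treated arrays lay above control arrays in each genotype. The change was 0.51 in WT (SE 0.14, 1.43-fold, adjusted p = 0.008) and 0.54 in lsPERK liver (SE 0.14, 1.46-fold, adjusted p = 0.0173), and the difference of 0.03 had a 95% confidence interval of -0.39 to 0.46. The lsPERK call of Atg12 was lost without lsPERK control replicate 2 or lsPERK tunicamycin replicate 2 (adjusted p = 0.0872 and 0.0532).

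Atg7, the activating enzyme of both conjugation systems, read 284, 572 and 421 in WT control, 266, 182, 274 and 261 in WT tunicamycin, 365, 374 and 420 in lsPERK control, and 263, 267, 332 and 263 in lsPERK tunicamycin arrays. Treated arrays lay below control arrays in both genotypes, narrowly so in WT. Atg7 fell by 0.75 in WT liver (SE 0.21, adjusted p = 0.00859), a call that ended without WT control replicate 2, the highest array (adjusted p = 0.0533). Its change in lsPERK liver was -0.46 (SE 0.21, adjusted p = 0.159), and the difference of 0.29 did not pass (SE 0.29, 95% confidence interval -0.34 to 0.92).

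Atg16l1 encodes the protein that places the ATG12 and ATG5 conjugate on the membrane. Its levels were 557, 646 and 606 in WT control, 618, 511, 529 and 483 in WT tunicamycin, 463, 530 and 511 in lsPERK control, and 742, 550, 750 and 619 in lsPERK tunicamycin arrays. Treated lsPERK arrays lay above lsPERK control arrays, and the WT groups overlapped. Neither response of Atg16l1 was called (WT -0.18, SE 0.13, and lsPERK 0.40, SE 0.13, adjusted p = 0.0531), while their difference was 0.57 (SE 0.18, adjusted p = 0.042). That call ended on leaving out any of 11 arrays in turn (adjusted p = 0.0528 to 0.0927), and the difference was -0.01 in the deposited intensities. Atg3, Atg5 and Atg10, which carry or accept the ubiquitin-like proteins, were called in no comparison, with WT changes of -0.04 (SE 0.20), -0.25 (SE 0.12) and -0.15 (SE 0.17).

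**Figure D3:**
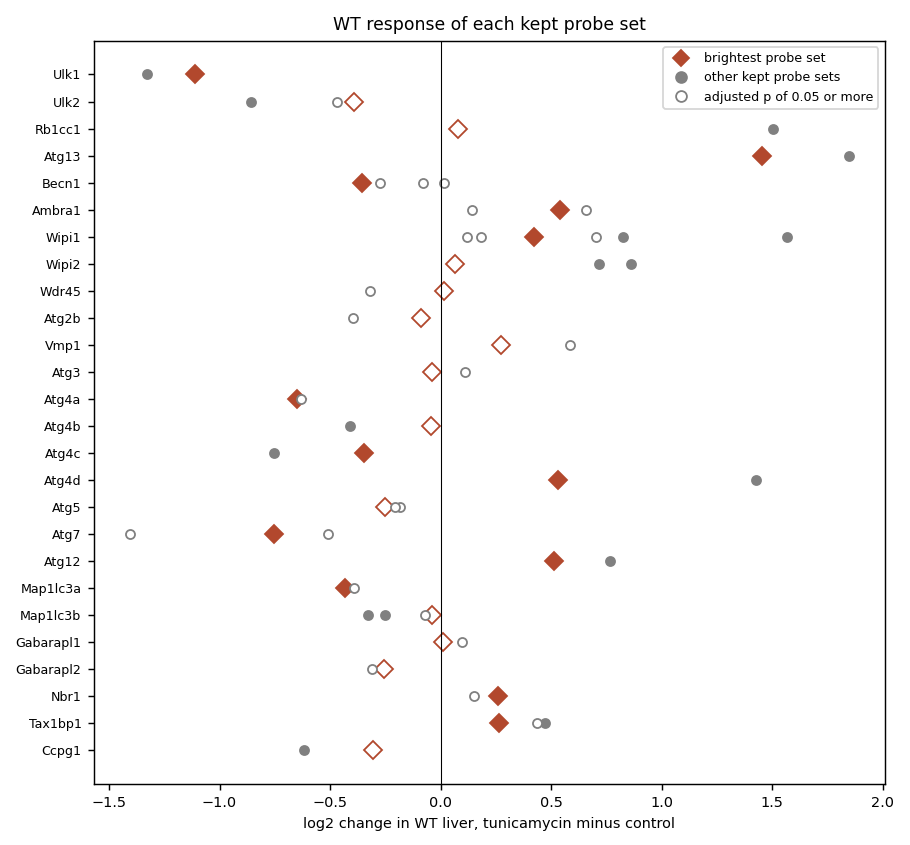
WT change after tunicamycin (log2, horizontal axis) of every kept probe set of the 26 members that have more than 1, with the brightest as a diamond and the others as circles. Filled symbols have a limma adjusted p under 0.05 over all probe sets, a fit in which the brightest set of Ccpg1 is not called. The sets of Ulk1 lie at -1.11 and -1.33 and those of Atg13 at 1.45 and 1.85, whereas those of Rb1cc1 lie apart at 0.08 and 1.50.

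The LC3 and GABARAP family, the proteins that are attached to the autophagosome membrane, had 1 of 5 genes called in WT liver and 2 of 5 in lsPERK liver. Among all genes, 46.7% and 15.7% were called. Gabarapl1 had the largest genotype difference of the family. It read 9970, 7860 and 9260 in WT control, 8150, 9690, 8320 and 10200 in WT tunicamycin, 6510, 8600 and 8810 in lsPERK control, and 4160, 5060, 6650 and 5170 in lsPERK tunicamycin arrays. The treated lsPERK arrays lay below all WT arrays, and 1 of them lay above the lowest lsPERK control array. Gabarapl1 changed by 0.01 in WT liver (SE 0.15, adjusted p = 0.965), fell by 0.61 in lsPERK liver (SE 0.15, 1.52-fold, adjusted p = 0.0146) and was 1.74-fold lower in treated lsPERK than in treated WT liver (-0.80, SE 0.14, adjusted p = 0.000513). The lsPERK call ended without lsPERK control replicate 2 or 3 (adjusted p = 0.0726 and 0.0575) and under median centring. The difference of the responses was -0.62 (SE 0.21, adjusted p = 0.0582), and a dimmer probe set of Gabarapl1 gave -0.88 (adjusted p = 0.03) with an lsPERK change of -0.79 (adjusted p = 0.0103).

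Gabarapl2 read 2180, 2350 and 2760 in WT control, 2100, 1650, 2160 and 2240 in WT tunicamycin, 2150, 1740 and 2210 in lsPERK control, and 2260, 2540, 2780 and 2810 in lsPERK tunicamycin arrays. Treated lsPERK arrays lay above treated WT and lsPERK control arrays. The difference of the responses of Gabarapl2 was 0.61 (SE 0.18, adjusted p = 0.0317), and it was lost without WT control replicate 3, lsPERK control replicate 2 or lsPERK tunicamycin replicate 3 or 4 (adjusted p = 0.0596 to 0.0884). Treated lsPERK liver held more than treated WT liver (0.35, SE 0.12, adjusted p = 0.034), a call that ended on leaving out any of 5 treated arrays in turn (adjusted p = 0.0524 to 0.0981).

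Map1lc3a read 3340, 2970 and 3610 in WT control, 2970, 2190, 2480 and 2210 in WT tunicamycin, 3050, 2640 and 3090 in lsPERK control, and 2710, 3590, 3240 and 3220 in lsPERK tunicamycin arrays. The WT groups met at the value of 2970 and the other groups overlapped with their neighbours. Map1lc3a fell by 0.43 in WT liver (SE 0.12, adjusted p = 0.0109), a call that ended without WT control replicate 3 (adjusted p = 0.0551) and in the deposited intensities, where the change was 0.0012. The difference of the responses was 0.55 (SE 0.18, adjusted p = 0.0403), which any of 10 arrays left out in turn ended (adjusted p = 0.0513 to 0.103). In treated liver the level was higher in lsPERK (0.38, SE 0.11, adjusted p = 0.0198), a call lost without WT tunicamycin replicate 2 or 4 or lsPERK tunicamycin replicate 2 (adjusted p = 0.0547 to 0.0649). A dimmer Map1lc3a probe set was called in no comparison. It changed by -0.39 in WT (adjusted p = 0.0597) and -0.16 in lsPERK liver (adjusted p = 0.581). Its difference was 0.13 between treated livers (adjusted p = 0.564) and 0.23 between responses (adjusted p = 0.545).

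Gabarap read 6710, 6130 and 6650 in WT control, 6470, 7160, 7430 and 7710 in WT tunicamycin, 6450, 6140 and 6700 in lsPERK control, and 7300, 7750, 7480 and 7530 in lsPERK tunicamycin arrays. Treated lsPERK arrays lay above all control arrays. Gabarap rose 1.17-fold in lsPERK liver (0.23, SE 0.07, adjusted p = 0.0383), and the WT change was 0.15 (SE 0.07, adjusted p = 0.0985). The lsPERK call ended on leaving out any of 6 lsPERK arrays in turn (adjusted p = 0.0593 to 0.151), and with the replicate number as a block (0.21, adjusted p = 0.086). Map1lc3b, the family member most often used as an autophagosome marker, was called in no comparison by its brightest probe set, ran from 4640 to 6000 over the 14 arrays and changed by -0.04 in WT (95% confidence interval -0.25 to 0.17) and 0.01 in lsPERK liver (-0.20 to 0.22). A pair of dimmer Map1lc3b probe sets gave WT changes of -0.25 (adjusted p = 0.0283) and -0.33 (adjusted p = 0.0182).

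All 3 measured cargo receptors were called in WT liver, by small changes, and none in lsPERK liver, beside 46.7% and 15.7% of all genes. Nbr1, which binds ubiquitin-tagged cargo, ran from 4770 to 4950 in WT control and from 5600 to 6100 in WT tunicamycin arrays and rose by 0.26 (SE 0.09, 1.2-fold, adjusted p = 0.0248), with 0.27 in lsPERK liver (SE 0.09, adjusted p = 0.0547). Tax1bp1, another ubiquitin-binding receptor, ran from 2790 to 2950 and from 3160 to 3710 in the same groups and rose by 0.27 (SE 0.10, adjusted p = 0.0422). Ccpg1, a receptor for the ER itself, ran from 723 to 849 and from 551 to 775 and fell by 0.30 (SE 0.12, adjusted p = 0.0483), but changed by 0.27 in the deposited intensities (adjusted p = 0.429). Treated lsPERK arrays of Ccpg1 ran from 751 to 841, 0.33 above treated WT (SE 0.11, adjusted p = 0.0283). A dimmer Ccpg1 probe set, of the type that may match other transcripts, changed by -0.62 in WT liver (adjusted p = 0.000667). It was 0.47 higher in treated lsPERK than in treated WT liver (adjusted p = 0.00437), with a difference of responses of 0.69 (adjusted p = 0.0118). The calls below are those of the brightest sets. The WT call ended on leaving out any of 3 arrays in turn for Nbr1 (WT control replicates 1 and 2 and WT tunicamycin replicate 2), any of 9 for Tax1bp1 and any of 12 for Ccpg1, with adjusted p up to 0.0676, 0.109 and 0.166, and the genotype call of Ccpg1 ended for any of 6 (up to 0.0888).

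Tfe3 rose in both genotypes. It encodes a transcription factor of lysosome and autophagy genes that starvation and ER stress are known to bring into the nucleus. Its levels were 440, 383 and 328 in WT control, 659, 713, 555 and 579 in WT tunicamycin, 279, 319 and 342 in lsPERK control, and 694, 675, 556 and 511 in lsPERK tunicamycin arrays. The 8 treated arrays lay above the 6 control arrays. Tfe3 rose 1.64-fold in WT (0.71, SE 0.15, adjusted p = 0.00125) and 1.94-fold in lsPERK liver (0.95, SE 0.15, adjusted p = 0.000598), and the difference of 0.24 did not pass (SE 0.21, 95% confidence interval -0.20 to 0.69). Its relative Tfeb ran from 86.9 to 163 over the 14 arrays and was called in no comparison, with changes of 0.10 in WT (SE 0.22) and -0.12 in lsPERK liver (SE 0.22).

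By their brightest probe sets, 27 of the 38 members were called in at least 1 comparison. The other 11 were called in none (Ulk2, Pik3r4, Wipi2, Wdr45, Atg2b, Atg3, Atg4b, Atg5, Atg10, Map1lc3b and Tfeb). The share of all genes called in at least 1 comparison was not computed. The changes of 10 members called in WT liver had the opposite sign in lsPERK liver, where none of the 10 was called (Ulk1, Becn1, Ambra1, Wipi1, Atg2a, Atg4a, Atg4c, Atg4d, Map1lc3a and Tax1bp1). For 7 of these 10 the difference of the responses was itself called: Ulk1, Ambra1, Atg2a, Atg4a, Atg4c, Atg4d and Map1lc3a. Picking opposite signs on the same arrays enlarges this difference, so the 7 calls are no separate support. The share among all genes picked this way was not computed. In the deposited intensities 2 of the 7 kept the call (Ambra1 and Atg4d). By its dimmer probe set, Map1lc3a changed by -0.16 in lsPERK liver, the same sign as in WT. In WT liver, 14 of the called members had another kept probe set, and for 13 of them every kept set had the same sign, with Becn1 as the exception. A second set was called in the same direction for 8 of the 14 and in the opposite direction for 0. Between treated livers, 13 called members had another kept set, all of 1 sign for 11 of them (not Becn1 or Ambra1), and a second set was called in the same direction for 10. The corresponding counts were 7, 7 and 3 for the difference of responses and 4, 4 and 2 for the lsPERK response. Some members not called by the brightest set had another kept set that was called. They were 5 in the WT response (Ulk2, Rb1cc1, Wipi2, Atg4b and Map1lc3b) and 1 between treated livers (Atg4b). In the difference of responses they were 4 (Rb1cc1, Atg13, Gabarapl1 and Ccpg1). Averaging all kept sets of a gene ended, besides the calls of Ambra1, those of Becn1 in the WT response (-0.17, adjusted p = 0.394) and between treated livers (0.25, adjusted p = 0.213), of Atg4a in the WT response (-0.64, adjusted p = 0.0564) and the difference of responses (0.94, adjusted p = 0.091), of Map1lc3a between treated livers (0.25, adjusted p = 0.141) and in the difference of responses (0.39, adjusted p = 0.182), and of Nbr1 in the WT response (0.21, adjusted p = 0.0966).

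**Figure D4:**
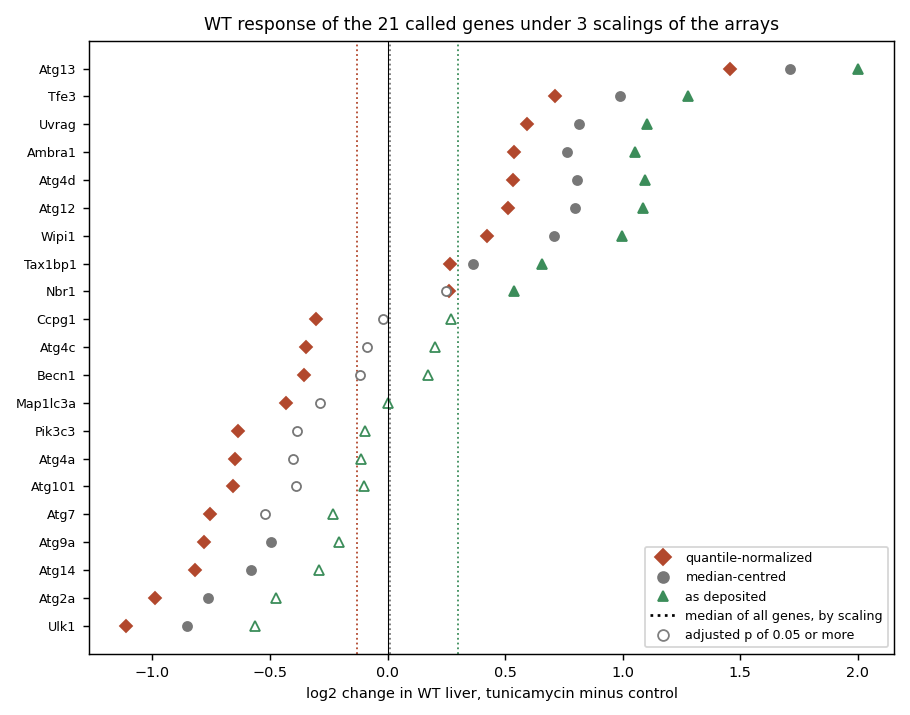
WT change after tunicamycin (log2, horizontal axis) of the 21 called members with quantile normalization (diamonds), with arrays centred on their medians (circles) and as deposited (triangles). Dotted lines mark the median of all genes under each scaling (-0.13, 0.01 and 0.30), and filled symbols have a limma adjusted p under 0.05. The genes called higher keep positive changes under each scaling, while those called lower move toward or past 0 in the deposited values.

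Of the 11 members reported as ATF4 or CHOP targets in fibroblasts, 2 were called higher (Atg12 and Nbr1) and 2 lower (Atg7 and Becn1) in WT liver. In lsPERK liver 2 were higher (Atg12 and Gabarap) and 0 lower. Over all genes the shares were 20.7% higher and 26% lower in WT and 8.42% and 7.27% in lsPERK liver. In the deposited intensities 3 of the 11 were higher and 0 lower in WT liver and 0 were called in lsPERK liver, and under median centring 1 was higher and 0 lower in WT liver. The median change of the 11 was -0.15 in WT liver, beside -0.13 over all genes, and 0.07 in lsPERK liver, beside -0.02. The WT count fell to 1 without WT control replicate 2, and the lsPERK count to 0 without lsPERK control replicate 2.

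Other genes of the pathway were taken from related lists. Among 16 other autophagy receptors and ER-phagy receptors, 3 were called higher and 10 lower in WT liver, with 2 higher and 6 lower in lsPERK liver, beside 20.7% higher and 26% lower over all genes in WT and 8.42% and 7.27% in lsPERK liver. Sqstm1, the receptor for ubiquitin-tagged aggregates, rose by 1.11 in WT liver (SE 0.07, adjusted p = 4.88e-08), changed by 0.05 in lsPERK liver (SE 0.07, adjusted p = 0.688) and had a difference of responses of -1.06 (SE 0.10, adjusted p = 2.60e-05). The ER-phagy receptor Retreg3 fell by 2.66 in WT liver and fell by 2.72 in lsPERK liver (SE 0.17 each, adjusted p = 5.72e-08 and 2.49e-07), and the difference was -0.06 (SE 0.24). In the deposited intensities, 4 of these receptors were higher and 3 lower in WT liver, and 1 was higher and 3 lower in lsPERK liver.

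Among 20 other genes of autophagosome formation and fusion, 7 were called higher and 8 lower in WT liver and 2 higher and 3 lower in lsPERK liver, beside the same shares of all genes. In the deposited intensities the counts were 9 higher and 3 lower in WT and 1 and 1 in lsPERK liver, and under median centring 7 and 6 in WT and 2 and 1 in lsPERK liver. The lsPERK count fell from 5 to 3 without lsPERK control replicate 2 or lsPERK tunicamycin replicate 1 or 3. Trp53inp1, a stress-induced protein that binds LC3, rose by 2.07 in WT and 2.12 in lsPERK liver (SE 0.14 each). Epg5, a tether for fusion with lysosomes, rose by 1.60 in WT liver (SE 0.15, adjusted p = 1.30e-06) and changed by -0.26 in lsPERK liver, a difference of -1.86 (SE 0.21, adjusted p = 7.66e-05). Nrbf2, a subunit of the ATG14 complex, rose by 0.78 in WT liver (SE 0.10, adjusted p = 2.07e-05) with a difference of responses of -0.85 (SE 0.14, adjusted p = 0.00104).

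Of 29 lysosome genes, 4 were called higher and 19 lower in WT liver, and 1 higher and 9 lower in lsPERK liver. Over all genes the shares were 20.7% higher and 26% lower in WT and 8.42% and 7.27% in lsPERK liver. The WT count was 4 higher and 2 lower in the deposited intensities and 4 higher and 16 lower under median centring, and 0 lysosome genes were called in lsPERK liver in the deposited intensities. The lsPERK count also fell to 6 without lsPERK control replicate 1 and to 4 without lsPERK control replicate 2. Atp6v1a, a subunit of the proton pump, fell by 1.06 in WT liver (SE 0.08, adjusted p = 2.89e-07) and changed by 0.05 in lsPERK liver. Npc1, the cholesterol exporter, rose by 1.21 in WT liver (SE 0.16, adjusted p = 3.13e-05) and changed by -0.14 in lsPERK liver.

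Among 25 genes of AMPK, mTORC1 and FoxO control, which act on the ULK1 complex or on transcription of autophagy genes, 7 were called higher and 8 lower in WT liver and 0 higher and 4 lower in lsPERK liver, again beside 20.7% higher and 26% lower over all genes in WT and 8.42% and 7.27% in lsPERK liver. In the deposited intensities the counts were 9 higher and 1 lower in WT liver, where the median change of the list turned from -0.25 to 0.33, and 0 higher and 1 lower in lsPERK liver. Under median centring they were 7 and 5 in WT and 1 and 2 in lsPERK liver, with a WT median of 0.04. The lsPERK count fell to 1 without lsPERK control replicate 2 or lsPERK tunicamycin replicate 2 and to 2 without lsPERK tunicamycin replicate 3 or 4. Ddit4, an inhibitor of mTORC1, rose by 3.57 in WT liver (SE 0.35, adjusted p = 2.19e-06) and changed by -0.05 in lsPERK liver (SE 0.35), a difference of -3.62 (SE 0.49, adjusted p = 0.000296). The folliculin partners Fnip1 and Fnip2 went opposite ways in WT liver, where Fnip1 rose by 0.98 (SE 0.17, adjusted p = 0.000324) and Fnip2 fell by 1.88 (SE 0.23, adjusted p = 1.34e-05). The difference of the responses was -1.29 for Fnip1 (SE 0.24, adjusted p = 0.00246) and 1.65 for Fnip2 (SE 0.32, adjusted p = 0.003).

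**Figure D5:**
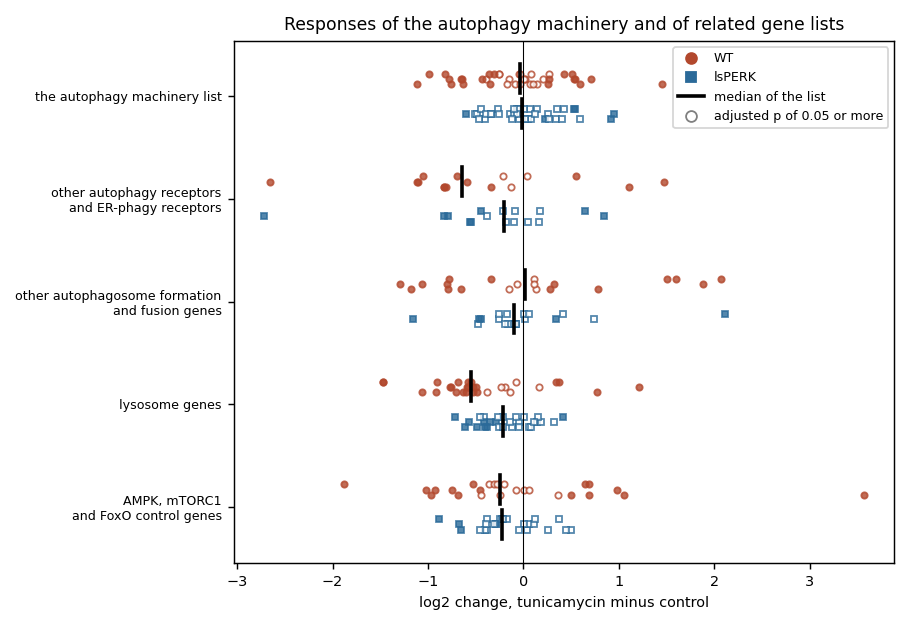
Log2 change after tunicamycin (horizontal axis) of each gene of the autophagy machinery and of 4 related lists in WT (circles) and lsPERK liver (squares), with a bar at each list's median. Filled symbols have a limma adjusted p under 0.05. The median of the machinery list is -0.04 in WT liver, and the medians of the other receptors and of the lysosome genes are -0.64 and -0.55.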

How the data were processed

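Total RNA of 14 liver samples was labelled by the Affymetrix 3′ protocol, per the labels' protocols, and MAS5 and GCOS are named in the submitters' processing notes. The authors deposited 1 linear intensity per probe set and array, from 0.0312 to 27757 over 45101 probe sets. The sources used here do not give the scaling target. For arrays, their number limits the precision.

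From these intensities log2 values were quantile normalized. Probe sets were named through the platform annotation (34945 with 1 gene, 932 with several, 9160 with none), and 34741 gene identifiers were found in the RefSeq table. Probe sets with at least 3 arrays above the pooled median (log2 5.37, intensity 41.5) were kept, and each gene was read from its brightest kept probe set. The model of 4 group means used limma 3.58.1 under R 4.3.3 (lmFit, eBayes with trend, 10 residual degrees of freedom), with 5 two-sided contrasts and Benjamini-Hochberg adjustment over 12085 genes. Probe sets of a gene other than the brightest come from a fit of all 21808 kept probe sets, adjusted over them. The procedure was tested on simulated data. Promoters were searched in Python 3.11.15, and figures were drawn with matplotlib 3.10.9.

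The members and lists were chosen with earlier results of these data known. All members are named. Every array's value is given for those called in a contrast, for up to 12 per contrast in order of p. Other genes named are, per related list, up to 4 with the smallest p. Alternatives covered scaling, filters, variance models, probe set rules, a minimum change, RNA quality, Xist signal, a replicate block and leaving out each array.

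Replicate numbers in the labels carry no stated litter or day. Over genes, deviations of same-numbered arrays correlated at 0.27, 0.24 and 0.35 in the lsPERK response, above the 0.1 set as the limit for pairing, and at -0.25, -0.37 and 0.16 in the WT response, where the numbers do not pair arrays. In the lsPERK response 3 of the 9 differently numbered pairs also correlated above 0.1 (0.19, 0.23 and 0.35) and the other 6 below 0. The 6 positive pairs were those in which both arrays had high or both had low Xist signal. In the other comparisons too, pairs alike in Xist correlated above 0 and unlike pairs below 0, whatever their numbers. WT control replicate 1 and WT tunicamycin replicate 2, both high in Xist, correlated at 0.54. The same-numbered WT pairs at -0.25 and -0.37 were unlike in Xist. The sign of the correlations thus followed Xist signal and not the replicate number, and its cause was not tested.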

Additional observations from a re-analysis of the deposited data

Results flagged for a closer look

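Of 76 groups of 4 arrays tested for a far array among the members, 4 had one by Dixon's test at the 95% level, and chance flags about 1 in 20. Atg2b read 291 in WT tunicamycin replicate 1, with the other 3 arrays at 234 to 243. Atg3 read 6020 in lsPERK tunicamycin replicate 3, with the others at 4280 to 4400. Atg7 read 182 in WT tunicamycin replicate 2 against 261 to 274, and 332 in lsPERK tunicamycin replicate 3 against 263 to 267.

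The tunicamycin response differed between genotypes, by limma's test of the difference itself (lsPERK minus WT, log2), for 9 members: Ulk1 (1.70), Atg2a (1.41), Atg4a (0.90), Atg4c (0.69), Gabarapl2 (0.61), Atg16l1 (0.57), Map1lc3a (0.55), Ambra1 (-0.68) and Atg4d (-0.92).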

How the results depend on the processing

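Members called numbered 21 for the WT response, 6 for the lsPERK response, 0 between control livers, 16 between treated livers and 9 for the difference of responses. With each array left out in turn the counts ran from 15 to 20, 2 to 7, 0 to 0, 11 to 17 and 5 to 11. The lsPERK response fell to 2 without lsPERK control replicate 2, and the difference of responses to 5 without that array or without WT control replicate 3. Of the 52 member calls, 23 ended when at least 1 array was left out. Median centring gave 13 calls in the WT response and 5 in the difference of responses, and the deposited intensities gave 9 between treated livers. A minimum log2 change of 1 left 2 WT response calls, 0 lsPERK response calls, 2 between treated livers and 2 in the difference of responses. Xist signal was above an intensity of 1000 on 1 of 3 WT control and 1 of 4 WT tunicamycin arrays. In lsPERK liver it was above this on 2 of 3 control and 2 of 4 tunicamycin arrays. Used as a covariate, Xist signal gave 11 lsPERK calls, 6 higher and 5 lower, beside 5 and 1 in the main fit. The low-Xist arrays alone gave 0 lsPERK calls and 3 in the difference of responses, and the high-Xist arrays alone gave 3 in the WT response, 3 between treated livers and 0 in the difference of responses, from fits of fewer arrays. A replicate block gave 19, 5, 0, 16 and 6 calls, and 44 of the 52 calls were kept under it; in the lsPERK response it ended the call of Gabarap and no other. Signs turned in the deposited intensities for Becn1 (0.17), Atg4c (0.20), Map1lc3a (0.0012) and Ccpg1 (0.27) in the WT response and for Atg16l1 (-0.011) in the difference of responses, and on the high-Xist arrays for Ccpg1 between treated livers (-0.0013). Apart from the scalings and the choice of arrays, the cause of these shifts was not tested. Control probe sets gave a mean log2 ratio of 3′ to 5′ signal of 0.33 ± 0.09 and 0.20 ± 0.17 in the WT and lsPERK control groups (SD, n = 3 each) and 0.19 ± 0.16 and 0.12 ± 0.06 in the treated groups (n = 4 each). As a covariate this ratio ended 6 of the 52 member calls.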
